A study of Mus musculus with 4 samples.

Results

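Vascular smooth muscle cells (VSMC) made up 91 of the 20850 barcodes that passed the limits on gene number and mitochondrial RNA in 4 single-cell RNA-seq libraries of mouse hindlimb muscle. A barcode was counted as a VSMC when it held 1000 to 5000 detected genes, at most 8% mitochondrial UMIs (molecules counted by their unique molecular identifier), a UMI of at least 2 of the genes *Pln*, *Tesc* and *Rergl*, at least 2 UMIs of *Myh11*, at most 1 UMI of *Pax7*, and no UMI of *Cdh5*, *Sox10* or *Ptprc*. Pericytes, the mural cells of capillaries, were used for comparison and were barcodes within the same limits and exclusions that held *Rgs5* and *Kcnj8* and none of *Pln*, *Tesc* and *Rergl*. They numbered 82, 561, 436 and 947. Groups of 4 values here and below follow the order B10, *mdx*, DBA and D2-*mdx*.

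The libraries came from C57/Bl10ScsSn mice (B10, 15 weeks of age), C57BL/10ScSn-Dmdmdx mice (*mdx*, 11 weeks), DBA/2 mice (DBA, 13 weeks) and D2.B10-Dmdmdx mice (D2-*mdx*, 14 weeks). The *mdx* allele is a point mutation in the X-linked dystrophin gene that removes full-length dystrophin from every cell of the animal, and D2-*mdx* mice carry it on the DBA background, where the muscle disease is more severe. Each library pooled 2 male mice and was sorted for ITGA7 and VCAM surface protein, without cells that carry CD11b, SCA1, CD45 or CD31, a gate set for satellite cells, the stem cells of muscle. With 1 library per strain there were no replicates, so no test was run between strains. All intervals are 95% counting intervals that do not include differences between mice. Those of levels and ratios, from UMIs summed over cells, also leave out differences between cells. Strain, age and library cannot be told apart.

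VSMC wrap arteries and arterioles and set vessel diameter by contracting. Calcium that enters through membrane channels or leaves the sarcoplasmic reticulum activates myosin light chain kinase, which allows smooth muscle myosin to pull on actin. In skeletal muscle these cells pass into pericytes along the arteriole, and the serum response factor with its partner myocardin drives their contractile genes through a short DNA element named the CArG box.

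Because mural cells were chosen here by contractile and vessel genes, the promoter windows that held an exact CArG box among the contractile genes are shown, 30 bases each from the RefSeq windows (GRCm38.p6), 5′ to 3′ on the strand of the gene, with the box in capitals.
Rergl: acaaggacagCCATAAAAGGcactttcaaa
Myl9: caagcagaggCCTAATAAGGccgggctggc
Ldb3: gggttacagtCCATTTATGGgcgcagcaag
The *Rergl* stretch lies at chr6:139501939-139501968 on the minus strand, with its box 49 to 40 bases before the RefSeq start, and it overlaps the 5′ end of the gene as GENCODE draws it. The *Myl9* stretch is at chr2:156775293-156775322 on the plus strand (box 161 to 152 bases before the start), and the *Ldb3* stretch is at chr14:34588697-34588726 on the minus strand (box 35 to 26 bases before the start). These were the 3 of 23 contractile and rule genes with a window (of 27) that held the box, 13.0%, against 488 of all 27025 gene symbols with a window, 1.81%, and 535 of all 32851 windows, 1.63%. The windows reach 250 bases before to 50 bases after each start, the motif was searched on both strands, and a match is a description of the letters only. *Myh11*, *Tagln* and *Actg2* were among the genes with no window. All levels below are given beside the gene in CPM, the summed UMIs of a cell type in a library scaled to a common total, and ratios are log2 ratios of these levels.

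VSMC were few in every library. B10 held 6 among 4762 kept barcodes, *mdx* 54 among 6669, DBA 14 among 3370 and D2-*mdx* 17 among 6049. As a share of kept barcodes this was 0.126% in B10 (95% exact binomial interval 0.0463 to 0.274) and 0.810% in *mdx* (0.609 to 1.06). The share was 0.415% for DBA (0.227 to 0.696) and 0.281% for D2-*mdx* (0.164 to 0.450). The *mdx* interval lay above that of B10, while those of DBA and D2-*mdx* overlapped. As a share of VSMC and pericytes together the values were 6.82% (2.54 to 14.3), 8.78% (6.66 to 11.3), 3.11% (1.71 to 5.16) and 1.76% (1.03 to 2.81). On this scale B10 and *mdx* overlapped, as did DBA and D2-*mdx*, and *mdx* lay above both libraries of the DBA background. The sort was set to admit cells with surface ITGA7 and VCAM, so the shares describe the sorted cells and not the muscle. Whether each VSMC carried these proteins was not measured here. The limits on genes and mitochondrial RNA also bear on the shares. They kept 4762 of 9931 barcodes in B10, 6669 of 7173 in *mdx*, 3370 of 3539 in DBA and 6049 of 6782 in D2-*mdx*. B10 thus lost by far the most barcodes, and the *mdx* over B10 ratios in VSMC below rest on its 6 cells. Median mitochondrial shares were 6.10%, 4.53%, 5.48% and 4.75% in VSMC and 3.90%, 3.23%, 2.80% and 2.96% in pericytes. In all, 4, 2, 7 and 6 further barcodes met the rest of the rule outside the limits. At most 5% mitochondrial UMIs left 0 VSMC in B10, which allows a share of up to 0.0816%, and 0.579% in *mdx*.

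**Figure D1:**
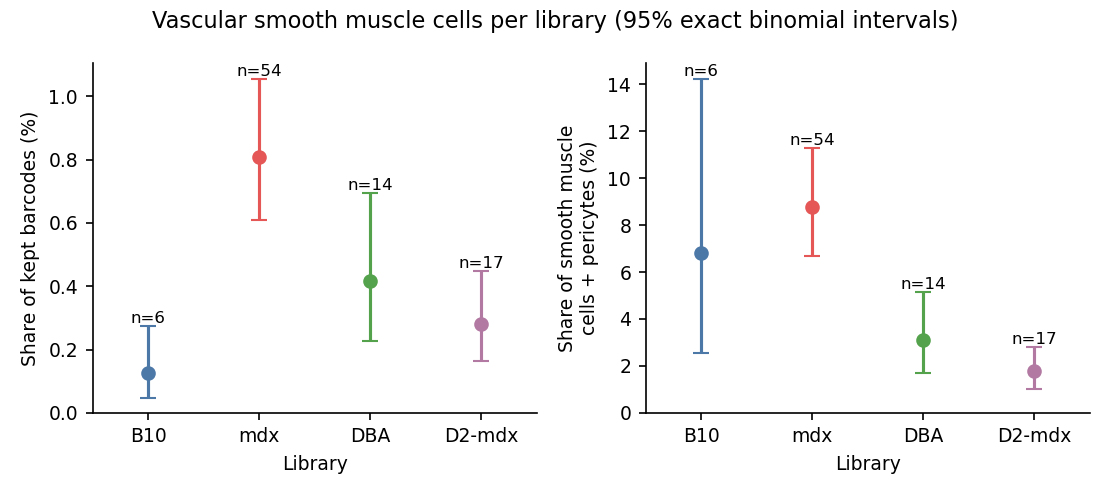
Share of VSMC in each library, left of all kept barcodes (%) and right of VSMC and pericytes together (%), with points at the share, bars for 95% exact binomial intervals and n for the number of VSMC. On the left *mdx* (0.810%) stands above B10 (0.126%), and on the right B10 (6.82%) and *mdx* (8.78%) overlap while D2-*mdx* (1.76%) lies lowest.

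The 91 cells shared no barcode with a cell of another library, although 61 barcode pairs were shared between libraries in the whole data, and 2 of the 91, both from *mdx*, were predicted doublets. Total UMIs were 43542853 to 75482888 per library. The VSMC held 105789, 589085, 212380 and 142052 UMIs in all, with medians of 16759, 10848.5, 13554 and 8083 per cell, above those of pericytes (10267, 8063, 11070 and 6999). All 3 of *Pln*, *Tesc* and *Rergl* were detected in 59 cells and 2 of them in 32. Median *Myh11* was 48.5, 42.2, 65.3 and 44.5 UMIs per 10000 in the members. Just outside the rule were 36 barcodes with at least 2 *Myh11* UMIs and only 1 of the 3 genes, of which *mdx* held 12, DBA 11 and D2-*mdx* 13. Their median *Myh11* was 11.6, 18.6 and 10.2 per 10000, their *Rgs5* 82.3, 65.0 and 95.5, and all 36 were *Rgs5*-positive. The members had a median *Rgs5* of 5.25, 1.26, 1.71 and 1.16 per 10000. *Kcnj8* was detected in 4 members, 2 in DBA and 2 in D2-*mdx*, and 2 of these also held *Rgs5*.

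Smooth muscle markers not used by the rule were also detected in the members. After each cell was thinned to 3000 UMIs (every member had at least 4687), *Acta2* (smooth muscle actin), *Tagln* (transgelin) and *Myl9* (regulatory light chain) were detected in 91 of 91 cells, *Mylk* (myosin light chain kinase) in 90 of 91, *Lmod1* (leiomodin, which nucleates actin filaments) in 79 of 91 and *Cnn1* (calponin) in 45 of 91. Without thinning *Lmod1* was found in 90 and *Cnn1* in 69 cells. *Acta2*, *Tagln* and *Myl9* are also present in pericytes at lower levels, so their detection alone does not tell the types apart. *Des* (desmin), also outside the rule, had a median log2 ratio over pericytes of 0.94, short of 2-fold. Across libraries *Cnn1* was detected in 33.3% to 58.8% of thinned VSMC, in 9.80% to 26.4% of pericytes and in 0.0244% to 0.185% of *Pax7*-positive cells, which should lack it. Of the sort markers, *Itga7* was at 179.6, 143, 89.5 and 162 CPM in VSMC against 98.9, 113, 121 and 103 in pericytes. *Vcam1* was at 9.45, 10.2, 0 and 21.1 CPM in VSMC against 121, 113, 136 and 131 in pericytes, so the transcript of the second sort marker rested on 3 UMIs or fewer in VSMC of 3 libraries. *Pecam1* and *Itgam* were at 0 in VSMC, and so was *Ptprc*, by the rule. *Ly6a*, the gene of SCA1, stayed under a mean of 50 CPM in both VSMC and pericytes.

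Summed over 8 of the 11 genes of the myogenic list, VSMC held 77.4 to 148 CPM. This was 2.42% to 4.22% of the level in *Pax7*-positive cells (at least 2 *Pax7* UMIs). *Pax7*, on that list, was held to at most 1 UMI in VSMC by the rule and chose the compared cells. Its part of the gap was therefore set in advance. *Chodl*, a satellite cell marker outside the rule, was at 56.7, 17.0, 47.1 and 14.1 CPM in VSMC against 1462, 1263, 1460 and 1045 in *Pax7*-positive cells. The 8 endothelial genes summed to 775, 791, 301 and 795 CPM in VSMC, against 1161, 889, 473 and 668 CPM in pericytes and 6.46 to 48.7 CPM in *Pax7*-positive cells, with *Kdr* and *Pecam1* at 0 in VSMC of all libraries. *Cdh5*, *Sox10* and *Ptprc*, each in 1 of the lists given here, were at 0 by the rule. The 8 white blood cell genes summed to 0 to 42.2 CPM, the 7 glial genes to 14.1 to 28.2 CPM, the 9 fibroblast and tenocyte genes to 91.7 to 165 CPM, the 10 myofibre genes to 0 to 42.2 CPM and the 4 globin genes to 9.45 to 42.2 CPM. *Pdgfra*, a fibroblast marker, was at 0 in VSMC of all 4 libraries. The fibroblast and tenocyte genes summed to 130, 57.6, 679 and 477 CPM in pericytes, so only in *mdx* were VSMC higher (91.7 CPM). Of the 2 genes of that list compared with pericytes, *Fmod* was at least 2-fold higher in VSMC (median log2 ratio 2.38) and *Dpt* lower (-5.56).

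VSMC were next set against pericytes of the same library. This contrast chose the members, so its values are a description. Of 3723 genes with at least 50 CPM in either type, 320 (8.6%) were at least 2-fold higher in VSMC in each of *mdx*, DBA and D2-*mdx*, and 366 (9.83%) were at least 2-fold lower, 18.4% in both directions. B10, with 6 cells, was not used for this count, and there 319 of the 320 and 359 of the 362 lower genes with a value pointed the same way. Counts past 2-fold over pericytes for the gene lists below stand beside 8.6% of all genes higher and 9.83% lower. The 10 highest genes were *Pln*, *Perp*, *Tesc*, *Olfr78*, *Rergl*, *Wfdc1*, *Susd5*, *Asb2*, *Sbspon* and *Xirp1*. *Pln*, phospholamban, the brake on the sarcoplasmic calcium pump, was at 718, 986, 989 and 1063 CPM and *Tesc*, tescalcin, a calcium-binding protein, at 425, 535, 598 and 612 CPM, both at 0 in pericytes by the rule. *Olfr78*, an odorant receptor also known from blood vessels, was at 161, 121, 217 and 127 CPM in VSMC and at most 0.199 CPM in pericytes. *Asb2*, which targets filamins for degradation, was at 161, 259.7, 235 and 204 CPM and *Xirp1*, an actin-binding protein of muscle, at 75.6, 64.5, 98.9 and 35.2 CPM, against at most 1.14 and 0.266 CPM in pericytes. In every library each of these genes was higher in VSMC than in pericytes of any library. For *Pln*, *Tesc* and *Rergl* the rule set this gap and their high ranks in advance, since pericytes could hold no UMI of them. How many of all genes show no overlap between the types was not counted, so such gaps, here and below, are descriptions.

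Genes of the contractile apparatus were mostly higher in VSMC. Of 22 compared, 11 were past 2-fold higher and 1 lower, with a list median of 1.47 against -0.15 for all genes. *Myh11*, the smooth muscle myosin heavy chain that the rule uses (gene at chr16:14194535-14291372 of GRCm38, minus strand), was at 7959, 4892, 7261 and 5083 CPM in VSMC and 1809, 978, 2341 and 1051 CPM in pericytes. *Acta2* was at 21278, 25462, 22658 and 23259 CPM in VSMC and 7387, 7962, 8706 and 6402 CPM in pericytes. Both genes were thus present in pericytes at a lower level, with no overlap between the types. *Smtn*, smoothelin, found in contractile smooth muscle, was at 643, 272, 471 and 317 CPM against 38.7, 23.0, 50.5 and 31.4 CPM. *Itga8*, an integrin chain of smooth muscle, was at 293, 194, 353 and 218 CPM against 10.2, 1.07, 16.4 and 2.13 CPM. *Tagln* and *Myl9* were higher by a log2 ratio near 1 in every library and missed the 2-fold mark in DBA (0.98 and 0.96). *Actg2*, the actin of gut and bladder smooth muscle, went the other way, at 0, 1.70, 28.3 and 7.04 CPM in VSMC and 285, 161, 455 and 259.8 CPM in pericytes. *Synpo2*, an actin-bundling protein, was alike in both types, with log2 ratios of 0.10, -0.43, 0.30 and -0.27.

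**Figure D2:**
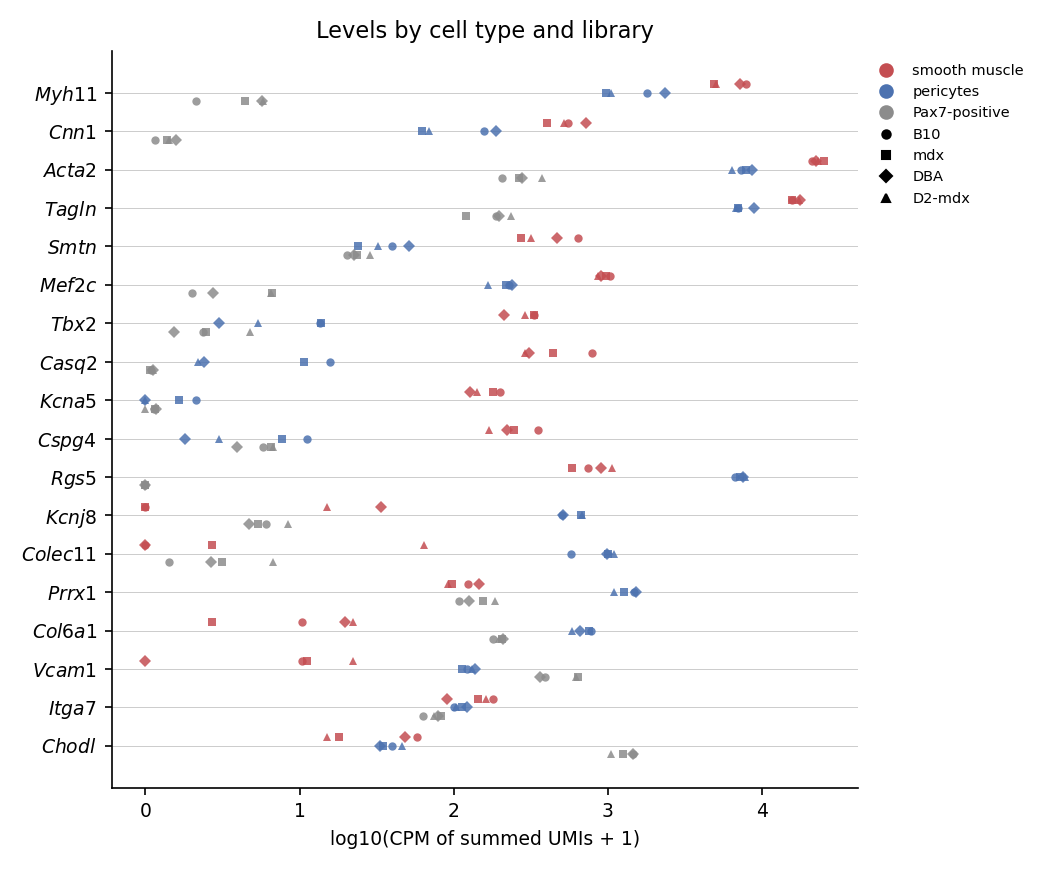
Level of 18 genes, as log10(CPM + 1), in VSMC, pericytes and *Pax7*-positive cells (colour) of each library (marker shape). *Kcna5* lies at 127 to 199 CPM in VSMC and at most 1.14 CPM in pericytes, and *Casq2* and *Cspg4* are set apart in the same way, while *Myh11* and *Acta2* are present in both mural types, *Colec11* and *Col6a1* are low in VSMC, and *Chodl* is high in *Pax7*-positive cells.

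Of 17 calcium handling and ion channel genes compared, 7 were past 2-fold higher in VSMC and 0 lower, with a median of 1.21. *Kcna5*, the Kv1.5 potassium channel, was at 199, 178, 127 and 141 CPM in VSMC and at most 1.14 CPM in pericytes. *Casq2*, calsequestrin, the calcium store protein of the sarcoplasmic reticulum, was at 785, 439.7, 306 and 289 CPM against 14.8, 9.66, 1.40 and 1.20 CPM. *Kcnmb1*, the subunit that raises the calcium sensitivity of large-conductance potassium channels, was at 66.2, 84.9, 122 and 91.5 CPM against 3.41, 2.36, 4.19 and 6.64 CPM. *Atp2a2*, the calcium pump held back by phospholamban, was at 1219, 1192, 1281 and 1077 CPM against 365, 253, 325 and 224 CPM. These 4 genes did not overlap between the types, a feature not counted over all genes, of which 18.4% were past 2-fold higher or lower. *Cacna1c*, the pore of the L-type calcium channel, did overlap, at 179.6, 39.0, 104 and 42.2 CPM in VSMC and 71.6, 50.03, 84.6 and 37.7 CPM in pericytes.

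Of the list of receptors and cyclic nucleotide genes 0 of 10 compared were past 2-fold in either direction in all 3 libraries, with a median of 0.28. *P2rx1*, the ATP-gated channel through which sympathetic nerves constrict arterioles, was at 208, 177, 23.5 and 21.1 CPM in VSMC, from 22, 104, 5 and 3 UMIs, and at 0 to 0.133 CPM in pericytes. In D2-*mdx* its counts were at or under 3 UMIs in both types, too few for a ratio. *P2rx1* could therefore not count as past 2-fold, although it was far higher in VSMC by its levels. Its level in *mdx* (interval 144 to 214 CPM) lay above that in DBA (7.6 to 54.9 CPM), so both B10-background libraries were high and both DBA-background libraries low. *Ednrb*, endothelin receptor B, was at 47.3, 117, 4.71 and 7.04 CPM in VSMC, from 5, 69, 1 and 1 UMIs. The *mdx* interval (91.1 to 148 CPM) lay above those of both DBA-background libraries (at most 39.2 CPM), and that of B10 overlapped with them. In pericytes *Ednrb* instead was at 5.69, 61.0, 0.199 and 56.2 CPM, high in the 2 dystrophic libraries. *Ednra*, endothelin receptor A, was at 47.3, 110.3, 188 and 77.4 CPM in VSMC against 313, 359, 312 and 316 CPM in pericytes, lower in each library. *Npy1r*, receptor of the sympathetic peptide NPY, was at 397, 385, 414 and 366 CPM in VSMC and 657, 370.0, 478 and 202 CPM in pericytes, and the types overlapped. *Adra2a*, an adrenergic receptor among the 10 lowest genes, had 1 UMI in all VSMC and was at 252, 255, 241 and 193 CPM in pericytes. It is outside the list, as is *Prkg2*, a cyclic GMP-dependent kinase named after its values were seen, with a median log2 ratio over pericytes of 4.30.

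Transcription factors split both ways, with 4 of 14 past 2-fold higher and 3 lower (median 0.27). *Mef2c*, a MADS-box factor of muscle, was at 1030, 974, 909 and 866 CPM in VSMC and 226, 217, 239 and 167 CPM in pericytes. *Tbx2*, a T-box repressor, was at 331, 329, 212 and 289 CPM against 12.5, 12.9, 1.99 and 4.38 CPM. *Myocd*, myocardin, was at 161, 73.0, 113 and 56.3 CPM against 33.0, 14.8, 51.7 and 17.3 CPM. *Prrx1*, a homeobox factor of mesenchyme, was lower, at 123, 96.8, 146 and 91.5 CPM against 1479, 1267, 1524 and 1099 CPM. The first 3 stood above pericytes in every library, and *Klf2*, the remaining gene higher past 2-fold, is described with the strains.

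Of 8 Notch genes, *Nrip2* and *Hey2* were past 2-fold higher and 0 lower (median 0.90). *Hey2*, an effector of Notch in arteries, was at 37.8, 67.9, 75.3 and 35.2 CPM against 18.2, 22.1, 21.3 and 14.7 CPM, and *Nrip2*, a nuclear receptor-interacting protein, at 482, 516, 414 and 521 CPM against 79.6, 56.3, 76.0 and 54.7 CPM. *Notch3*, the receptor of mural cells, was at 662, 465, 569.7 and 373 CPM in VSMC and 849, 617, 817 and 537 CPM in pericytes, somewhat lower in VSMC of each library and short of 2-fold. Its ligand *Jag1* was at 331, 227, 249.6 and 204 CPM against 171, 120.5, 139.6 and 90.9 CPM.

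**Figure D3:**
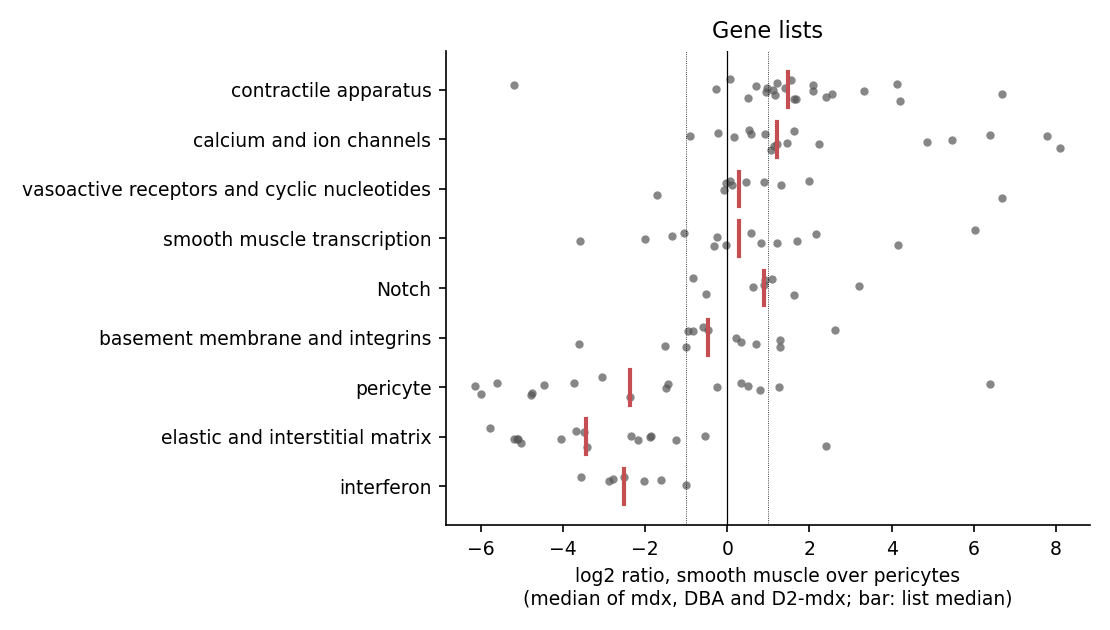
Log2 ratio of VSMC over pericytes, as the median of *mdx*, DBA and D2-*mdx*, for each gene compared of 9 lists (points), with the list median as a red bar and dotted lines at 2-fold. Contractile (1.47), calcium and ion channel (1.21) and Notch (0.90) medians lie right of 0, and the pericyte (-2.36), interferon (-2.52) and elastic and interstitial matrix (-3.45) medians lie left of it.

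Pericyte genes were mostly lower in VSMC. Of 17 compared, 10 were past 2-fold lower and 1 higher, with a median of -2.36, and *Rgs5* and *Kcnj8* of this list defined the pericytes. *Rgs5*, a regulator of G-protein signalling, was still at 747, 584, 909 and 1070 CPM in VSMC against 6711, 7238, 7541 and 7756 CPM, from 54 of the 91 cells. *Colec11*, a collectin, was at 0, 1.70, 0 and 63.4 CPM in VSMC, mostly from D2-*mdx*, and at 574, 1002, 994 and 1103 CPM in pericytes. *Abcc9*, the channel partner of *Kcnj8*, was at 0, 1.70, 42.4 and 14.1 CPM against 519.6, 403, 459 and 379 CPM. *Pdgfrb*, the receptor that recruits mural cells, was at 255, 178, 235 and 169 CPM against 511, 523, 476 and 456 CPM. The gene that was past 2-fold higher was *Cspg4*, the NG2 proteoglycan, often used as a pericyte marker, at 349.8, 246, 221 and 169 CPM in VSMC and 10.2, 6.66, 0.798 and 1.99 CPM in pericytes, with no overlap.

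Interstitial matrix genes were mostly lower in VSMC. Among 16 elastic and interstitial matrix genes 11 were past 2-fold lower in VSMC and 1 higher, with a median of -3.45. *Col3a1* (type III collagen) was at 56.7, 27.2, 98.9 and 98.6 CPM in VSMC and 2965, 2569, 3226 and 2817 CPM in pericytes. *Col6a1* (type VI collagen) was at 9.45, 1.70, 18.8 and 21.1 CPM against 782, 759, 657 and 584 CPM. *Eln* (elastin) was at 75.6, 44.1, 108 and 162 CPM against 638, 394, 550.0 and 283 CPM and missed 2-fold in D2-*mdx*. *Sparcl1*, a matricellular protein, was the gene that was higher, at 7014, 5522, 5961 and 7786 CPM against 1213, 1256, 1129 and 1466 CPM. Of 13 basement membrane and integrin genes, *Bcam*, a laminin receptor, was past 2-fold higher, at 728, 856, 560.3 and 838 CPM against 97.8, 139, 113 and 129 CPM, while *Nid1* (nidogen) and *Itga1* were lower (median -0.46). Of 7 interferon and antigen presentation genes 6 were past 2-fold lower (median -2.52). *Ccl11*, eotaxin, the lowest gene of all, was at 0, 1.70, 4.71 and 77.4 CPM against 679, 1177, 931 and 1016 CPM.

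The VSMC also differed among themselves. In *mdx*, the library with most of them, the variance over the mean of thinned UMIs was 0.99 for the median gene, close to the value of 1 that counting alone gives. It was 64.3 for *Malat1*, a nuclear long non-coding RNA, 26.1 for *Thbs1* (thrombospondin), 13.2 for *Gm42418*, 12.4 for *Atf3*, a stress-induced factor, and 12.2 for *Gm13889*, the 5 highest. For *Thbs1* 61.3% of the UMIs lay in 1 cell. *Gm42418* overlaps *AY036118* on the opposite strand of chromosome 17 in a ribosomal RNA repeat, and their reads cannot be told apart with certainty. *Rgs5* was uneven too, found in 43 of 91 thinned cells and reaching 24.1, 49.6, 49.8 and 78.9 UMIs per 10000 in the highest cell of each library, although the rule did not use it for VSMC. *Kcna5* was found in 33 of 91 thinned and 69 unthinned cells, and *P2rx1* in 22 of 91 and 42.

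**Figure D4:**
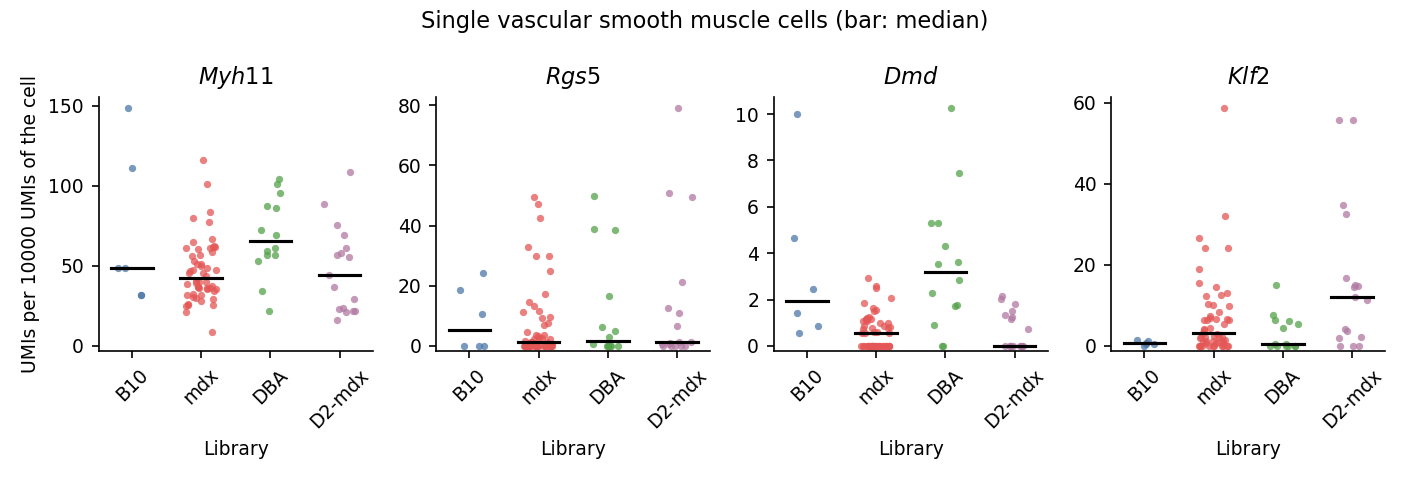
UMIs per 10000 in each VSMC for *Myh11*, *Rgs5*, *Dmd* and *Klf2*, by library, with each point a cell and the bar the median. *Klf2* reaches 58.6 in *mdx* and 55.7 in D2-*mdx* against 1.48 in B10 and 15.1 in DBA, and *Dmd* reaches 2.93 and 2.13 against 10.0 and 10.2, with cells at low values in all 4 libraries.

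The matched strains were compared within VSMC, *mdx* with B10 and D2-*mdx* with DBA. *Dmd* (chrX:82948870-85206141, plus strand) was at 416, 66.2, 391 and 63.4 CPM, from 44, 39, 83 and 9 UMIs. It was thus low in both dystrophic libraries, with log2 ratios of -2.65 (-3.31 to -1.996) and -2.62 (-3.80 to -1.63). The tags come from the 3′ end of the transcript, downstream of the mutation, so the level is no check of the label, and they do not separate the isoforms. In pericytes *Dmd* was at 389, 207, 407 and 153 CPM, with ratios of -0.91 and -1.41, and in *Pax7*-positive cells at 327, 134, 293 and 117 CPM. Of the B10 UMIs of *Dmd* 61.4% came from 1 cell, and without the cell with most UMIs in each library the *mdx* ratio was -1.79, with a range of -2.69 to -1.72 over all alternatives and -2.93 to -2.23 for D2-*mdx*.

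Over all genes, a gene was counted when its ratio was at least 2-fold and its counting interval excluded 0. Among 3397 genes compared, 99 (2.91%) were higher and 207 (6.09%) lower in *mdx* than in B10, 9.01% in both directions, and among 3384 genes 158 (4.67%) were higher and 116 (3.43%) lower in D2-*mdx* than in DBA, 8.1% in both directions. In pericytes, with more cells, the counts were 31 (0.859%) higher and 89 (2.47%) lower of 3608 for *mdx*, 3.33% in both directions, and 69 (1.92%) and 131 (3.64%) of 3595 for D2-*mdx*, 5.56%. Library sizes from the trimmed mean of M values (TMM) moved the median of all genes from -0.03 to 0.27 in *mdx* and from 0.06 to -0.080 in D2-*mdx*, and turned the counts to 241 higher and 89 lower in *mdx* and 129 higher and 162 lower in D2-*mdx*. The balance of higher and lower genes therefore depended on the scaling, and single ratios are read against these shifts. Of 2881 genes compared on both backgrounds, 12 were higher in both dystrophic libraries, 9 lower in both and 7 opposite. The overlap that the shares of genes counted in each comparison would give alone was not computed, so these counts are a description.

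*Klf2*, a zinc-finger transcription factor best known in endothelial cells under flow (chr8:72319033-72321656, plus strand), was at 85.1, 723, 315 and 1739 CPM in VSMC, from 9, 426, 67 and 247 UMIs. Both dystrophic libraries were above their controls, by log2 ratios of 3.09 (2.15 to 4.23) and 2.46 (2.07 to 2.87), and over all alternatives the ratios were 3.04 to 3.42 and 2.12 to 4.82. In pericytes *Klf2* was at 71.6, 40.6, 28.1 and 40.7 CPM and in *Pax7*-positive cells at 115, 117, 39.99 and 114 CPM, with pericyte ratios of -0.82 and 0.53. Per cell its median was 0.64, 3.11, 0.56 and 12.0 UMIs per 10000, and cells at 0 occurred in every library. *Klf4*, a related factor, was at 18.9, 104, 28.3 and 49.3 CPM, with ratios of 2.45 (0.54 to 5.53) from 2 UMIs in B10 and 0.80 (-0.99 to 2.65). Of the 8 endothelial genes 6, 3, 6 and 3 were at 0 in VSMC, with *Kdr* and *Pecam1* at 0 in every library and *Cdh5* excluded by the rule, and the list summed to 775, 791, 301 and 795 CPM. Its levels came mainly from *Esam*, an adhesion molecule, at 189, 241, 151 and 204 CPM, and from *Fabp4*. *Fabp4*, a fatty acid-binding protein, was at 586, 538, 151 and 570.2 CPM, with a D2-*mdx* ratio of 1.92 (1.31 to 2.56).

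Cell dissociation also induces immediate-early and heat shock genes. Of 15 compared, 5 were higher and 0 lower in *mdx* (2.91% of all genes higher), with 9 ratios above 0, 6 below and a median of 0.28. Of 16, 7 were higher and 0 lower in D2-*mdx* (4.67% of all genes higher), with 14 ratios above 0, 2 below and a median of 0.95. In pericytes 1 was higher and 1 lower of 16 in *mdx* and 3 higher and 0 lower of 16 in D2-*mdx*. *Atf3* was at 170.2, 419, 329.6 and 1675 CPM in VSMC, with ratios of 1.30 (0.61 to 2.08) and 2.35 (1.96 to 2.75). *Jun* was higher in *mdx* (1.46, interval 1.09 to 1.87), and *Fos* and *Junb*, further AP-1 subunits, were higher in D2-*mdx* (1.37, interval 1.21 to 1.54 and 1.78, interval 1.52 to 2.04). *Hspa1a*, an inducible HSP70, was at 142, 903, 673 and 1443 CPM, with ratios of 2.67 (1.94 to 3.52) and 1.10 (0.78 to 1.42), the second 0.67 to 1.95 over all alternatives and so not always past 2-fold, and its near-identical copy *Hspa1b* at 179.6, 1154, 669 and 683 CPM, so the split between the copies is uncertain. The whole list summed to 7373, 12071, 11352 and 24343 CPM in VSMC and to 18343, 22343, 14169 and 20540 CPM in pericytes. The part of dissociation in the *Klf2* and *Atf3* levels was not tested.

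*Mt1*, a metallothionein that binds zinc and copper, was at 161, 640.0, 132 and 598 CPM, higher in both dystrophic libraries by log2 ratios of 1.99 (1.30 to 2.79) and 2.18 (1.55 to 2.85). Over all alternatives the ratios were 0.85 to 2.25 and 1.25 to 3.16, the lowest in *mdx*, short of 2-fold, with all 3 of *Pln*, *Tesc* and *Rergl* required. Pericyte ratios of *Mt1* were 1.16 and 1.12, in the same direction. *Id1*, an inhibitor of differentiation downstream of BMP signals, was at 56.7, 156, 9.42 and 303 CPM, with ratios of 1.46 (0.28 to 2.94) and 5.01 (3.07 to 8.10), the second from 2 UMIs in DBA. *Socs3*, a feedback inhibitor of cytokine signals, was at 47.3, 115, 51.8 and 436 CPM, with a D2-*mdx* ratio of 3.07 (2.14 to 4.15). *Hspb1*, a small heat shock protein of muscle, was at 851, 3191, 1488 and 1739 CPM, with ratios of 1.91 (1.60 to 2.23) and 0.22 (-0.02 to 0.47), so only the first passed 2-fold. *Ifitm1*, an interferon-induced membrane protein, was at 0, 3.40, 9.42 and 197 CPM, and 27 of its 28 D2-*mdx* UMIs lay in 1 cell. *Mgp*, an inhibitor of calcification, was at 0, 3.40, 18.8 and 246 CPM, with 33 of 35 D2-*mdx* UMIs in 1 cell, and without the members that held *Kcnj8* the *Mgp* ratio was -0.60.

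**Figure D5:**
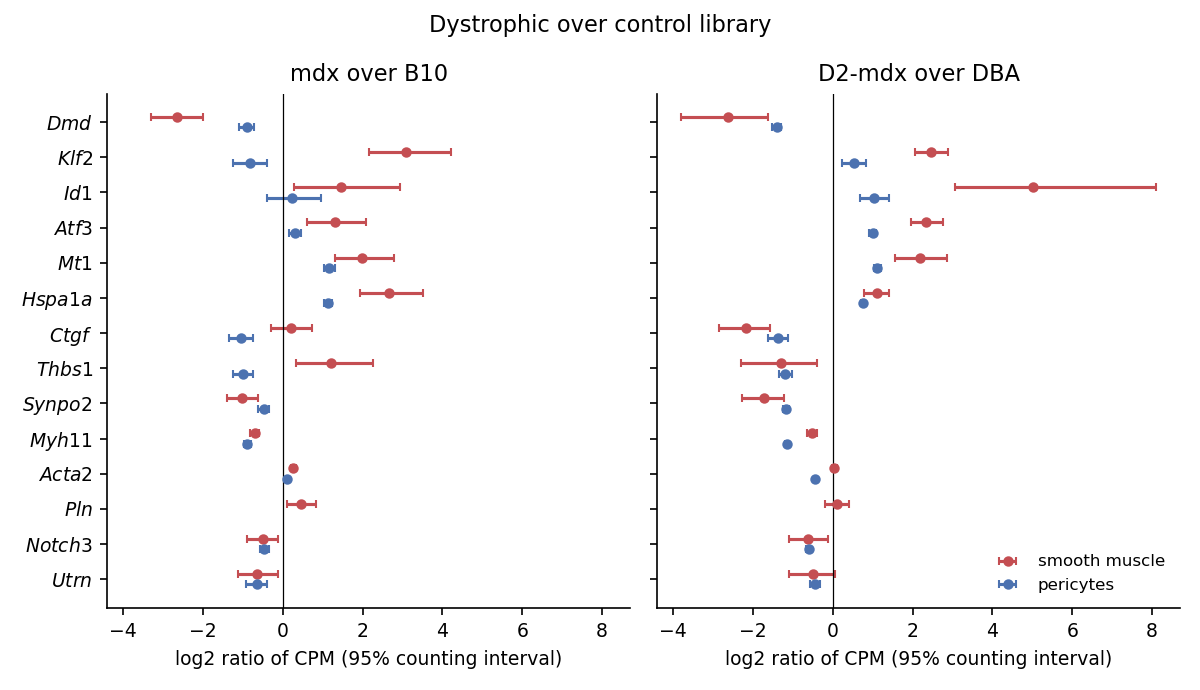
Log2 ratio of *mdx* over B10 and of D2-*mdx* over DBA, with 95% counting intervals, in VSMC and pericytes for 14 genes (*Pln* has no pericyte value). *Klf2* is high in VSMC of both dystrophic libraries (3.09 and 2.46) and not past 2-fold in pericytes (-0.82 and 0.53), and *Dmd* is low in both cell types.

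Of 21 contractile genes compared between the strains, 0 were higher and 2 lower in *mdx* (median -0.31) and 0 higher and 1 lower in D2-*mdx* (median -0.44), against 9.01% and 8.1% of all genes past 2-fold and medians of all genes of -0.03 and 0.06. Without the cell with most UMIs of each gene in each library, the *mdx* median of the list was 0.019 and that of all genes 0.22. *Myh11* ratios were -0.70 (-0.81 to -0.59) and -0.51 (-0.64 to -0.39), and *Acta2* ratios 0.26 (0.19 to 0.32) and 0.04 (-0.03 to 0.10). *Smtn* was lower in *mdx* (-1.24, interval -1.66 to -0.81) and short of 2-fold in D2-*mdx* (-0.57, interval -1.11 to -0.05). *Synpo2* was at 737, 365, 889.9 and 268 CPM and lower in both (-1.01, interval -1.39 to -0.62 and -1.73, interval -2.28 to -1.23), and 42 of its 78 B10 UMIs came from 1 cell, without which and its *mdx* counterpart the first ratio was -0.38. *Cacna1c* was lower in *mdx* (-2.20, interval -3.14 to -1.24, from 19 and 23 UMIs), and its D2-*mdx* interval reached 0 (-1.29, interval -2.89 to 0.05). *Ctgf*, a matricellular growth factor, was at 349.8, 401, 796 and 176 CPM, with ratios of 0.20 (-0.31 to 0.74) and -2.18 (-2.85 to -1.57), so the DBA library was high and D2-*mdx* low.

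*Dmd* and its partners were compared as a list. Of 10 genes 4, *Dmd* among them, were lower and 0 higher in *mdx*, beside 6.09% of all genes lower. Of 11 in D2-*mdx* the 1 lower gene was *Dmd* itself (3.43% of all genes lower) and 2 were higher (4.67%). *Utrn*, utrophin, the dystrophin homologue, was at 425, 273, 391 and 275 CPM, with ratios of -0.64 (-1.12 to -0.13) and -0.51 (-1.10 to 0.06), short of 2-fold. *Sgca*, alpha-sarcoglycan, was at 94.5, 37.3, 65.9 and 56.3 CPM in VSMC and at most 2.39 CPM in pericytes, and was lower in *mdx* (-1.34, interval -2.48 to -0.10). *Sgcb* (-1.09, interval -2.05 to -0.04) and *Dtna*, dystrobrevin (-1.40, interval -2.61 to -0.07), were the other genes lower in *mdx*, each from under 40 UMIs per library. *Sspn*, sarcospan, was higher in D2-*mdx* (1.68, interval 0.30 to 3.22), as was *Sntb2*, a syntrophin, from 1 UMI in DBA and 8 in D2-*mdx*.

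Further genes at the low end rested on few UMIs. *Efhd1*, *Npnt* and *Nov* each had 8 UMIs in B10, all from 1 cell, and 0 in *mdx*. *Optc* had 9, 3, 14 and 2 UMIs, with ratios of -4.06 (-6.58 to -2.06) and -2.23 (-5.41 to -0.10). *Tcap*, a sarcomere protein, had 9, 31, 64 and 6 UMIs and a D2-*mdx* ratio of -2.83 (-4.33 to -1.63), and *Fst*, follistatin, had 24 UMIs in DBA, 21 of them in 1 cell, and 0 in D2-*mdx*. *Gm42418* and *AY036118* were lower in both dystrophic libraries, by -1.42 and -1.91 for *Gm42418* (-0.69 in *mdx*, short of 2-fold, with all 3 of *Pln*, *Tesc* and *Rergl* required) and -1.63 and -1.91 for *AY036118*.

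The counts of the further lists stand beside 9.01% of all genes past 2-fold in *mdx* and 8.1% in D2-*mdx*, and each rests on at most 18 genes. Calcium and ion channel genes gave 0 higher and 1 lower of 18 in *mdx* (median -0.34) and 0 and 1 of 16 in D2-*mdx* (-0.08). Notch genes gave 0 and 0 of 8 in *mdx* (0.08) and 1 and 1 of 8 in D2-*mdx* (-0.47), where *Hes1*, a Notch target, was higher (1.75, interval 1.17 to 2.36) and *Notch1* lower (-1.68, interval -3.43 to -0.26). Receptor genes gave 1 higher and 2 lower of 13 in *mdx*, where *Rgs4* and *Rgs2*, which dampen G-protein signals, were the lower genes (-1.01, interval -1.32 to -0.68 and -2.48, interval -3.90 to -1.06). In D2-*mdx* 0 of 9 were higher and 1, *Ednra*, lower (-1.28, interval -2.39 to -0.29). Elastic and interstitial matrix genes gave 1 and 1 of 8 in *mdx* (-0.20), with *Bgn*, biglycan, lower (-1.67, interval -2.43 to -0.88), and 1 and 0 of 9 in D2-*mdx*. Basement membrane genes gave 0 and 0 of 13 in *mdx* and 0 and 0 of 12 in D2-*mdx*. Smooth muscle transcription genes gave 2 higher and 2 lower of 14 in *mdx*, with *Myocd* (-1.14, interval -1.98 to -0.24) and *Foxc1* (-1.80, interval -2.79 to -0.76) lower, and 1 higher and 0 lower of 12 in D2-*mdx*. TGF-beta and BMP genes gave 2 higher and 2 lower of 11 in *mdx* and 2 and 1 of 11 in D2-*mdx*. Phenotype switching and injury genes gave 2 and 0 of 13 in *mdx* and 3 and 2 of 14 in D2-*mdx*, and pericyte genes 0 and 1 of 11 and 3 and 1 of 12. The D2-*mdx* median of the pericyte genes was 0.64 and turned negative without the members that held *Kcnj8*. *Ifitm1*, among the higher genes there, had nearly all its D2-*mdx* UMIs in 1 cell. The 3 interferon genes compared gave 0 and 0 in *mdx* and 1 and 0 in D2-*mdx*.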

How the data were processed

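Single-cell RNA-seq counts of 4 libraries were analysed (27998 genes, 3539 to 9931 barcodes per library). The deposited count matrices hold whole UMI counts, made by the authors with 10X 3′ V3.1 chemistry and Cell Ranger 3.0.1 on mm10. UMIs are molecules, and intervals cover counting error only. VSMC, pericytes and *Pax7*-positive cells were chosen by detected genes, and UMIs were summed per library and cell type, scaled to CPM and compared as log2 ratios with exact conditional binomial intervals. A level of 0 was set to a floor of 3 counts, which gives a bound. Genes needed 50 CPM in either group. Shares of cells with a UMI used cells thinned to 3000 UMIs. Doublets were predicted with Scrublet (scanpy 1.11.5) and kept. TMM factors came from edgeR 4.0.16 in R 4.3.3, with no test. The computation was tested on simulated data. Python 3.11.15, numpy 2.4.6, scipy 1.17.1 and pandas 2.3.3 were used.

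The members and gene lists were chosen with earlier results of these data known. Named genes were those of the rule and the lists, *Dmd*, the 10 highest and 10 lowest genes of VSMC over pericytes, the 5 highest and 5 lowest of each strain comparison ranked by the interval bound nearest 0, and the 5 most variable in *mdx*, without ribosomal, mitochondrial and sex-linked marker genes. Genes with the same or the opposite direction on both backgrounds were named after their values were seen. *Itgam* and *Ltbp4* have 2 gene identifiers, and the one with more UMIs was used. *Gucy1a1*, *Gucy1b1*, *Mrtfa*, *Ccn1* and *Ccn2* were looked up under older symbols. The alternatives tried were other limits on genes and mitochondrial UMIs, a stricter rule, thinned barcodes, TMM, other minimum levels and the removal of single cells.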

Additional observations from a re-analysis of the deposited data

Results flagged for a closer look

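Barcodes outside the gene and mitochondrial limits were used in no comparison, yet 4 in B10, 7 in DBA and 6 in D2-*mdx* met the rest of the VSMC rule (2 in *mdx*).

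The 7 genes that passed 2-fold in opposite directions on the backgrounds drew attention because *mdx* and D2-*mdx* pointed apart, and the difference between the backgrounds was not tested. *Tor1aip1*, a nuclear envelope protein, had ratios of 1.33 in *mdx* over B10 and -1.80 in D2-*mdx* over DBA. *Thbs1* had ratios of 1.21 and -1.30, with 61.3% of its *mdx* UMIs in 1 cell. *Igf2*, an insulin-like growth factor, had ratios of 1.43 and -1.49, and *Kif13a*, a kinesin, 2.03 and -1.94. *Foxo1*, a forkhead factor, had ratios of -2.06 and 2.58 from 6, 8, 2 and 8 UMIs, and without the cell with most UMIs in each library its first ratio was 0.14. *Rp9* had ratios of -1.03 and 1.41. *Rasd1*, a Ras-like G protein, had ratios of -2.11 and 1.22, with 25 of its 52 B10 UMIs in 1 cell.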

How the results depend on the processing

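Of 611 recomputed summary values 565 stayed within the spread given for them and 46 moved. With 500 or more genes and no upper limit, D2-*mdx* over DBA had 241 higher and 221 lower genes and an elastic matrix median of -1.81. At most 5% mitochondrial UMIs gave VSMC shares of kept barcodes of 0% in B10, 0.579% in *mdx* and 0.162% in DBA, and of both mural types 0%, 6.32% and 1.18%, a Notch median over pericytes of 0.56, and D2-*mdx* medians of -0.21 (pericyte), -0.44 (elastic matrix) and 1.58 (immediate-early), while *mdx* over B10 could not be computed. All 3 genes gave an *mdx* share of 0.435% (4.92% of both types), medians over pericytes of -2.81 (pericyte), -2.73 (elastic matrix) and -0.68 (basement membrane) and 62 higher genes in *mdx*. Thinned barcodes gave an *mdx* share of 0.585%. TMM moved the medians of all genes to -0.041 over pericytes, 0.27 in *mdx* and -0.080 in D2-*mdx*, with 241 higher and 89 lower genes in *mdx*. With no minimum level the medians over pericytes were 0.016 (receptors), -2.03 (elastic matrix), -0.69 (basement membrane) and 0.82 (dystrophin complex). At 200 CPM fewer genes were tested, with 137 higher and 105 lower than pericytes, 23 and 33 in *mdx*, 42 and 26 in D2-*mdx*, medians over pericytes of -3.05 (pericyte), -0.20 (basement membrane) and -0.027 (all genes) and a D2-*mdx* pericyte median of -0.39.

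Alternatives chosen after seeing the data moved a further set. At most 15% mitochondrial UMIs gave a smooth muscle transcription median of 0.59. Without *Kcnj8*-positive members the pericyte medians were -2.83 over pericytes and -0.27 in D2-*mdx* (0.64 with all members), and *Mgp* turned to -0.60. Without the cell with most UMIs of each gene in each library, which takes 1 of 6 cells from B10 and 1 of 54 from *mdx*, *mdx* over B10 had 163 higher and 59 lower genes, a contractile median of 0.019 and a median of all genes of 0.22. Some of these settings used fewer genes or cells, and the cause of the shifts was not tested.

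No paired analysis was possible because each strain had 1 library and the labels carry no replicate numbers, and there was no replicate to leave out. Depth limits the rest, since 3 UMIs of VSMC stand for 28.4 CPM (B10), 5.09 CPM (*mdx*), 14.1 CPM (DBA) and 21.1 CPM (D2-*mdx*).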

Other observations

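The 11 cell cycle genes summed to 1049, 629.8, 584 and 605 CPM in VSMC and to 747, 868, 674 and 734 CPM in pericytes. *Mki67*, a proliferation marker, was at 0 UMIs in all 4 libraries, *Top2a* had 2 UMIs in *mdx* only, and *Cdk1* 1 UMI in D2-*mdx*. *Cdk6*, a G1 kinase, was present without them, at 94.5, 114, 75.3 and 91.5 CPM in VSMC against 20.5, 24.7, 6.38 and 17.5 CPM in pericytes, and was the 1 of 3 compared genes of the list past 2-fold higher.

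Among 13 TGF-beta and BMP genes, *Tgfb2*, a ligand, and *Ltbp1*, a protein that holds latent TGF-beta in the matrix, were past 2-fold higher in VSMC than in pericytes, and 2 were lower. Over all genes compared 8.6% were higher and 9.83% lower. The list median was -0.24 against -0.15 for all genes, so the list as a whole lay close to all genes. *Tgfb2* was at 151, 136, 118 and 119.7 CPM against 56.9, 57.6, 43.7 and 30.03 CPM, and *Ltbp1* at 113, 81.5, 104 and 77.4 CPM against 15.9, 14.2, 16.6 and 12.8 CPM. Of 17 phenotype switching and injury genes 7 were past 2-fold lower and 2 higher, with a median of -1.28. The higher genes were *Ctgf*, at 349.8, 401, 796 and 176 CPM against 146, 70.4, 73.8 and 28.6 CPM, and *Aspn*, asporin, a small leucine-rich proteoglycan, at 1011, 1114, 1201 and 1169 CPM against 351, 414, 451 and 334 CPM.

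Genes at least 2-fold higher in both dystrophic libraries also included *Ppp1r15a* (1.21 in *mdx*, 1.46 in D2-*mdx*), which ends the block of translation in stressed cells, *Gadd45g* (1.29, 2.47), a stress-induced growth arrest gene, and *Ldha* (1.04, 1.03), a lactate dehydrogenase chain. *Prkg2*, a cyclic GMP-dependent kinase, was lower in both (-1.05, -1.71).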
